A study of Homo sapiens with 4 samples.

Results

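Neurofilament subunits, the deubiquitinase UCHL1 and a set of synaptic and growth-cone markers were followed in FaDu, an established squamous carcinoma line of the hypopharynx. The 9 genes are UCHL1, NEFH, NEFM, NEFL, INA, SYP, SNAP25, STMN2 and GAP43, and each had 1 row among the 25548 gene symbols of the deposited expression table. They were picked by name with results of these same libraries known, so their values are given as a description and carry no test. One FaDu culture was treated with 5 µM of the DNA methyltransferase inhibitor 5-aza-2'-deoxycytidine (Aza) on days 1 to 3 and with 100 nM of the histone deacetylase inhibitor trichostatin A (TSA) on day 3. The other FaDu culture had received vehicle and is labelled DMSO only, although the protocol names ethanol as the vehicle of TSA. Each culture gave 1 stranded library of polyadenylated RNA, 2 libraries in all, so no difference below has a replicate check and no p-value is given. Expression is in FPKM, the fragments of a gene scaled to transcript length and library size. A second line of the study, UMSCC47, gives no value here, because the values in its columns do not match the genes named in the rows.

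Neurofilaments are the intermediate filaments of axons, built from light (NEFL), medium (NEFM) and heavy (NEFH) subunits together with alpha-internexin (INA). UCHL1, also called PGP9.5, is a ubiquitin C-terminal hydrolase that is abundant in neurons and neuroendocrine cells. Synaptophysin (SYP) is a membrane protein of synaptic vesicles, SNAP25 is the plasma-membrane SNARE that drives their fusion, stathmin-2 (STMN2) regulates microtubules in growing axons, and GAP43 is a membrane protein of growth cones. In non-neuronal cells many such genes are kept off by the repressor REST, which works through the SIN3 and CoREST complexes and their histone deacetylases, and the promoter of UCHL1 is known to be methylated in several carcinomas.

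The promoter windows of UCHL1, INA, SYP and GAP43 are shown because DNA methylation acts on CpG sites and these 4 windows differ in how many they hold. Each runs from 250 bases before to 50 bases after the RefSeq start of the gene on GRCh38.p14, 300 bases in all, 5′ to 3′ on the strand of the gene, with every CpG in capitals. UCHL1 lies at chr4:41256678-41256977 (plus strand), INA at chr10:103276888-103277187 (plus strand), SYP at chrX:49200144-49200443 (minus strand) and GAP43 at chr3:115623260-115623559 (plus strand).
UCHL1: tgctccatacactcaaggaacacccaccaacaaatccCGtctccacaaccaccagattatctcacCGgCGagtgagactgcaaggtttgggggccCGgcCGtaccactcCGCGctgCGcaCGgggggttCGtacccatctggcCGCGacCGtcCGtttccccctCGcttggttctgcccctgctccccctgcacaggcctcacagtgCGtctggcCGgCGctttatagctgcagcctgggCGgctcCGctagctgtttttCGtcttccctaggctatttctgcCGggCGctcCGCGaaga
INA: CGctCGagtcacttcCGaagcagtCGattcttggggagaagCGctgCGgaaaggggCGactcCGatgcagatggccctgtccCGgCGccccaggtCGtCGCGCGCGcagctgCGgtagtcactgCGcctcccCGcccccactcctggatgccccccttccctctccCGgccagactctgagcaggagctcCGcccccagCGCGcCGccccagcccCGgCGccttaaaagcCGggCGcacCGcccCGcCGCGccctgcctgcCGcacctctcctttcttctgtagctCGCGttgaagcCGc
SYP: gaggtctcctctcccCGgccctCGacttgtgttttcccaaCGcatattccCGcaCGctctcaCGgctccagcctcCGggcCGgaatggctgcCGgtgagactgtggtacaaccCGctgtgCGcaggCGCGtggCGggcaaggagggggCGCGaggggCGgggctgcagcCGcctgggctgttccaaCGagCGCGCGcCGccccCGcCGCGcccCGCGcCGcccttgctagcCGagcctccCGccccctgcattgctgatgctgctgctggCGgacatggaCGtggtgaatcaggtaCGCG
GAP43: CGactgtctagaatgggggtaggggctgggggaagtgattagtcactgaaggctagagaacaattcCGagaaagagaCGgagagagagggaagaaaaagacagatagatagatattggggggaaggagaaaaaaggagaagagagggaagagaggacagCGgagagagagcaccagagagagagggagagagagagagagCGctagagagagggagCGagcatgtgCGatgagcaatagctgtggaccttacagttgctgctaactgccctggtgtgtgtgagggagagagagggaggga

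INA and SYP held 35 CpG sites each, which 14.1% of all 35116 promoter windows reach or exceed. UCHL1 held 25, a count reached by 32.0% of windows, and GAP43 held 7, against a median of 14 over all windows. The ratio of observed to expected CpG was 0.958 for INA, 0.918 for SYP, 0.870 for UCHL1 and 0.509 for GAP43. Parts of the element that REST binds were searched on both strands as TTCAGCAC and GGACAG, which do not overlap within it. TTCAGCAC was in none of these 4 windows and in 0.963% of all windows. GGACAG was in the INA and GAP43 windows and in 20.5% of all windows. RefSeq windows were matched by symbol for these 4 of the 9 genes, and not for NEFH, NEFM, NEFL, SNAP25 and STMN2. Methylation was not measured in these libraries. Over all measured genes with a window, taking the window with most CpG where a symbol has several, 752 of 5601 (13.4%) with 25 or more CpG sites exceeded their DMSO level by 2-fold or more after treatment, against 564 of 3282 (17.2%) with fewer. With the trend in transcript GC content subtracted, these shares were 3.58% with 25 or more and 10.1% with fewer. Whether the CpG content of the UCHL1, INA and SYP windows bears on their differences was not tested. The split at 25, the count of UCHL1, was chosen after the values were seen, and the shares carry no test.

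All 9 genes were under 1 FPKM in the DMSO library. In the treated library UCHL1, NEFH, INA and SYP were at least 2-fold higher than in the DMSO library, NEFM was higher by less than 2-fold, and NEFL, SNAP25, STMN2 and GAP43 stayed under 1 FPKM. Differences are on the log2(FPKM + 1) scale, treated minus DMSO, a scale on which low genes appear to change less than they do. A gene counts as measured when one of the 2 libraries reached 1 FPKM. Of the 9 genes, 5 were measured, each of them through the treated library alone. The 4 higher genes stand against 2178 of 13558 measured genes (16.1%) at least 2-fold higher and 706 (5.21%) at least 2-fold lower, and none of the 9 was lower by that rule. Since the genes were chosen from this contrast, nothing is read from these shares. The median difference of the 9 genes, measured or not, was 0.79, beside 0 for all symbols and 0.13 for all measured genes.

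**Figure D1:**
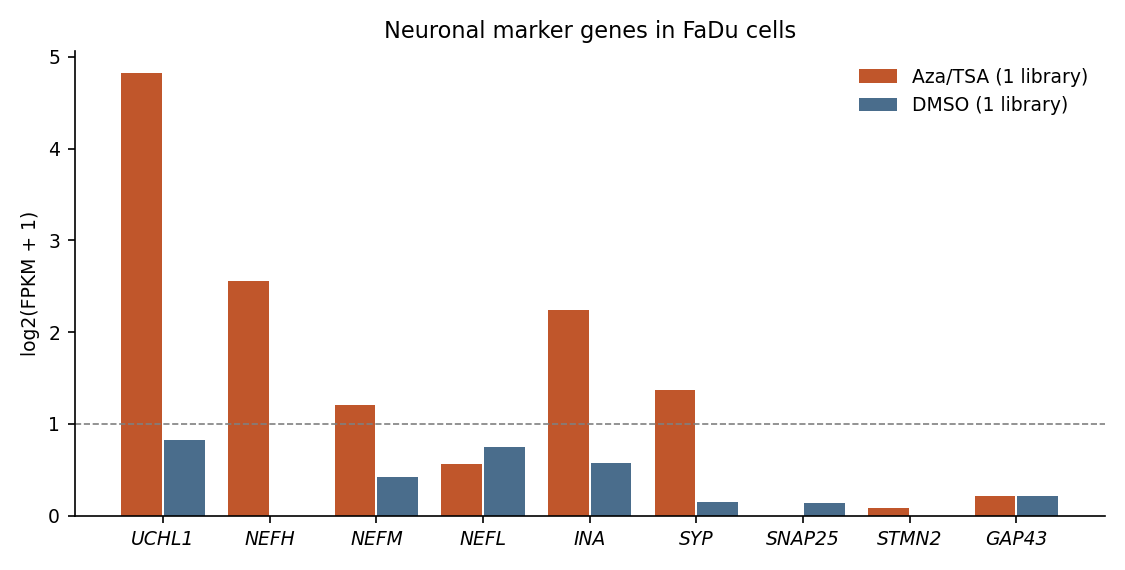
Level of each of the 9 genes in the Aza/TSA library (orange) and the DMSO library (blue) of FaDu, as log2(FPKM + 1), with 1 library per group and the dashed line at 1 FPKM. UCHL1 reaches 27.3 FPKM in the treated library, NEFH 4.89 and INA 3.72, while every DMSO bar lies under the line.

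The differences of many genes followed the GC content of their transcripts in these libraries, with a Spearman correlation of 0.68 across 7127 genes at 5 FPKM or more in both, which share the 2 libraries and are not independent replicates. The differences are therefore also given with that trend subtracted. After this correction 936 of 12526 measured genes (7.47%) were at least 2-fold higher and 535 (4.27%) lower. UCHL1, NEFH and INA were among the higher genes, and SYP was not. A GC trend of the treatment and one of library preparation cannot be told apart with 1 library per group, and genes near 0 FPKM may be overcorrected.

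UCHL1 had 27.3 FPKM in the treated library, against 0.777 FPKM in the DMSO library. It was the only one of the 9 genes to pass 5 FPKM. The ratio of its FPKM values was 35.2, and its log2 difference of 3.99 ranked 144th of the 13558 measured genes. Corrected for GC content (51.7% in its transcript) the difference was 3.75. In the DMSO library 51.1% of all gene symbols had a lower value than UCHL1, and in the treated library 88.9% had.

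FPKM values at the low end moved in steps, which gives an idea of how many reads stand behind each gene. Over genes with a single annotated transcript of at least 1000 bases, 1 read was worth about 0.0670 FPKM per kilobase in the treated library and 0.0660 in the DMSO library. The gap between these rough estimates is not read as a difference, because low genes with nearly equal values in both libraries share a treated to DMSO ratio of 0.999855. Of the low genes up to 3.5 reads, 61.3% in the treated library and 67.8% in the DMSO library lay within 0.15 of a whole number. Evenly spread values would give 30% against a step set independently. The step was the median of part of these same genes, which raises the shares, so they are no check of it. For UCHL1 the ratio of the FPKM values, once divided by that 0.999855, equals that of 422 reads to 12 within 0.002%. Exact Poisson and binomial intervals at 95% on such inferred reads cover counting error only and compare the 2 libraries, not the treatments. For UCHL1 they ran from 383 to 464 reads in the treated library, from 6.20 to 21.0 in the DMSO library, and from 19.9 to 68.6 for the ratio.

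Among the filament subunits, NEFH and INA were higher in the treated library and NEFL was not. NEFH, the heavy subunit with the long phosphorylated tail, was at 4.89 FPKM in the treated library and listed at 0 in the DMSO library. By its transcript length of 3783 bases these values correspond to about 276 reads and none, where a count of 0 still allows up to 3.69 reads in the Poisson interval. Its log2 difference was 2.56, which depends on the pseudocount because the DMSO value is 0, and 1.94 after GC correction. Transcripts of NEFH had 57.8% GC, next to SYP the highest of the 9 genes.

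INA, the fourth subunit of neurofilaments in the central nervous system, had 3.72 FPKM in the treated library, against 0.492 FPKM in the DMSO library. By the same step the ratio of 7.56 corresponds to 189 reads against 25, with an interval of 4.97 to 12.0. Its log2 difference was 1.66, or 1.48 after GC correction. INA and UCHL1 were thus the genes of the 9 whose difference was shifted least by the correction among those at least 2-fold higher.

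NEFM, the medium subunit, had 1.31 FPKM in the treated library, against 0.335 FPKM in the DMSO library. The plain ratio was 3.92, on about 79 and 20 reads, with an interval of 2.39 to 6.81. On the log2(FPKM + 1) scale its difference was 0.79 and so under 2-fold, but it passed 2-fold with a pseudocount of 0.1 (1.70) and after scaling to TPM (1.08). NEFL, the light subunit on which the other subunits assemble, had 0.475 FPKM in the treated library, against 0.686 FPKM in the DMSO library. That ratio of 0.692 corresponds to 27 reads against 39, and its interval of 0.408 to 1.16 includes 1. The 4 filament genes together summed to 10.4 FPKM in the treated library, against 1.51 FPKM in the DMSO library. NEFH made up 47.0% of that sum in the treated library and none of it in the DMSO library, while NEFL made up 4.57% of it in the treated library and 45.3% in the DMSO library.

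The synaptic vesicle protein SYP had 1.58 FPKM in the treated library, against 0.107 FPKM in the DMSO library. The ratio of 14.7 corresponds to 59 reads against 4, with an interval of 5.47 to 55.9. Its log2 difference was 1.22, and after GC correction it was 0.54, under 2-fold. SNAP25 was listed at 0 in the treated library, against 0.0966 FPKM in the DMSO library, which is about 3 reads. At this depth no difference in SNAP25 was detectable.

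The growth-cone markers stayed near the limit of these libraries. STMN2 had 0.0590 FPKM in the treated library, about 2 reads, and was listed at 0 in the DMSO library, a difference that is not detectable at this depth. GAP43 had 0.15839 FPKM in the treated library, against 0.158413 FPKM in the DMSO library. These GAP43 values differ by the same 0.999855 ratio that 188 of 2010 genes under 0.3 FPKM in both libraries share within 0.002%, and they correspond to 4 reads in each. With 4 reads against 4, the interval of the ratio ran from 0.186 to 5.37, so that a change of that size was not detectable.

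**Figure D2:**
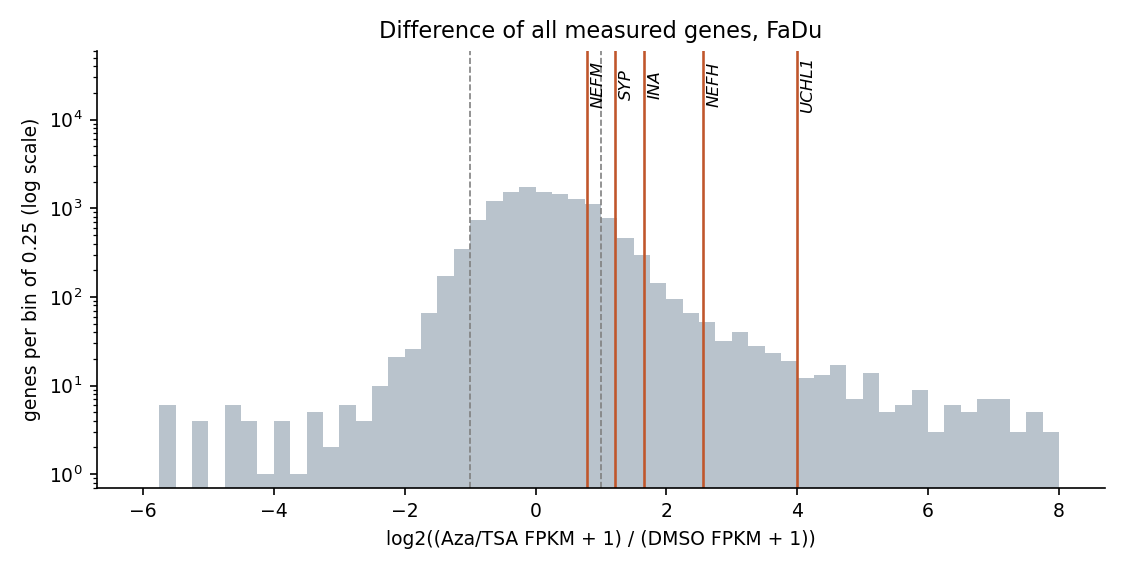
Number of genes (log scale) by their log2 difference, treated over DMSO, for all 13558 measured genes of FaDu in bins of 0.25, with dashed lines at 2-fold. Orange lines mark the 5 measured marker genes: NEFM at 0.79 lies inside the dashed lines, and SYP (1.22), INA (1.66), NEFH (2.56) and UCHL1 (3.99) lie to their right.

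In the treated library the order of the levels was UCHL1, NEFH, INA, SYP, NEFM, NEFL, GAP43, STMN2 and SNAP25. The counting intervals of UCHL1, NEFH, INA and SYP on the FPKM scale did not overlap each with the next. The gap was narrow between NEFH (from 4.33 FPKM) and INA (up to 4.29 FPKM). Those of SYP (1.20 to 2.03 FPKM) and NEFM (1.04 to 1.64 FPKM) overlapped, which does not show equal levels. Error in transcript length is not in these intervals, so they do not settle the order of genes. For UCHL1 the length-based estimate of 478 reads lay outside its own interval. The intervals of NEFM and NEFL did not overlap, and those of NEFL, GAP43, STMN2 and SNAP25 overlapped each with the next. In the DMSO library the order was UCHL1, NEFL, INA, NEFM, GAP43, SYP and SNAP25, with NEFH and STMN2 listed at 0, and there the intervals of all neighbours overlapped. NEFL, second in the DMSO library, was sixth in the treated library.

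Other genes of the same families ranged from 0 in both libraries to levels above those of the 9 genes. UCHL3, the closest relative of UCHL1, had 59.7 FPKM in the treated library and 62.6 FPKM in the DMSO library. UCHL5, a hydrolase of the proteasome, had 6.59 FPKM in the treated and 8.86 FPKM in the DMSO library. Of 11 genes in a list of UCH enzymes, other deubiquitinases and ubiquitin genes, 1 was at least 2-fold higher and none lower. That gene was the polyubiquitin gene UBB, at 1186 FPKM in the treated library and 536 FPKM in the DMSO library, and it was under 2-fold after GC correction (0.91). BAP1 (0.96), OTUB1 (0.89), USP5 (0.71), USP7 (0.30), USP14 (-0.03) and RPS27A (-0.17), with their log2 differences in brackets, were within 2-fold.

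SYPL1, a relative of synaptophysin found in many tissues, had 44.7 FPKM in the treated library, against 83.1 FPKM in the DMSO library, within 2-fold. SNAP23, the SNARE that serves in place of SNAP25 outside neurons, had 19.3 FPKM in the treated library and 15.3 FPKM in the DMSO library. STMN1, the stathmin of dividing cells, had 89.2 FPKM in the treated library and 139 FPKM in the DMSO library. STMN3 differed from these, at 2.57 FPKM in the treated library and 0.174 FPKM in the DMSO library (log2 difference 1.60, or 0.74 after GC correction), and STMN4 was listed at 0 in both. Of the calmodulin-binding relatives of GAP43, neurogranin (NRGN) had 3.59 FPKM in the treated library and 0.766 FPKM in the DMSO library, and BASP1 had 97.4 FPKM in the treated and 78.3 FPKM in the DMSO library. MARCKSL1, another membrane protein that binds calmodulin, had 57.6 FPKM in the treated library and 14.9 FPKM in the DMSO library and stayed at least 2-fold higher after GC correction (1.18), while the correction took NRGN under 2-fold (0.46). MARCKS had 13.7 FPKM in the treated library and 24.8 FPKM in the DMSO library, within 2-fold, and PCP4 was listed at 0 in both.

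**Figure D3:**
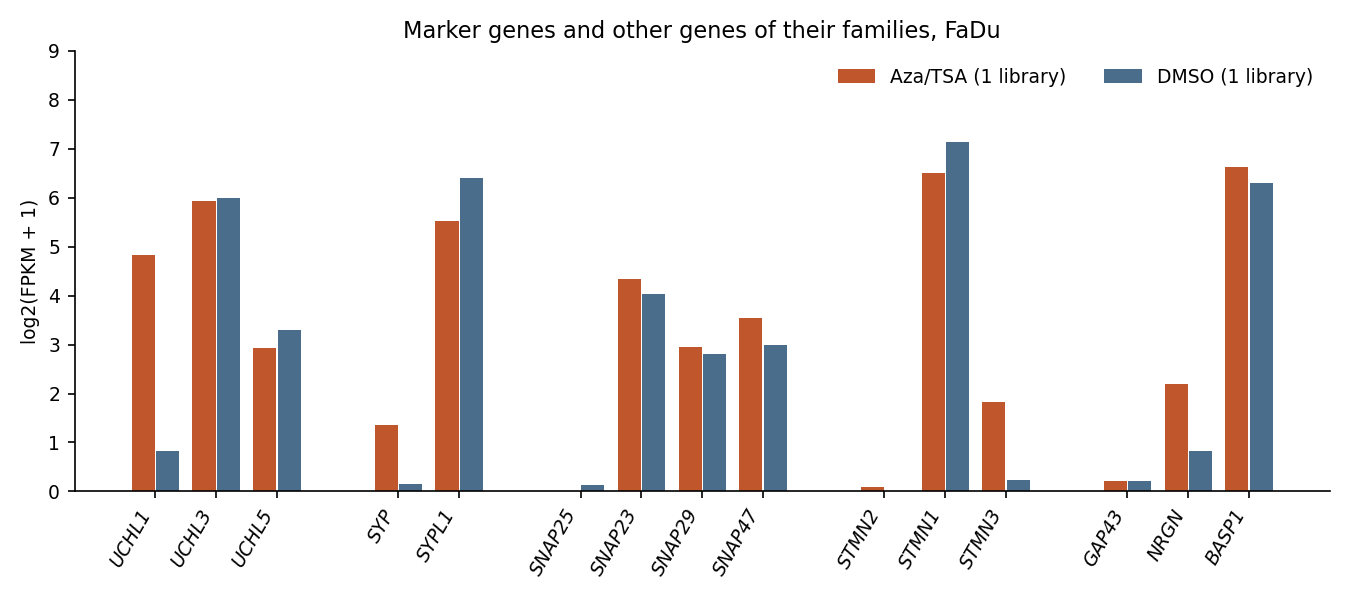
Levels of the marker genes and of other genes of their families in the Aza/TSA library (orange) and the DMSO library (blue) of FaDu, as log2(FPKM + 1), with 1 library per group. UCHL3, SYPL1, SNAP23, STMN1 and BASP1 stand above 15 FPKM in both libraries, and SNAP25, STMN2 and GAP43 under 0.2 FPKM in both.

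Filaments and binding partners of the neurofilaments were also listed. Of 13 such genes 9 were measured, 3 differed upward by 2-fold or more and 1 downward. Of the 3, 2 reached 1 FPKM in the treated library alone. Beside the counts of each list, 16.1% of all measured genes were at least 2-fold higher and 5.21% lower. The median difference was 0.43 over the measured genes and over all 13. The stem-cell filament nestin (NES) had 2.09 FPKM in the treated library and 0.0667 FPKM in the DMSO library. Vimentin (VIM), the filament of mesenchymal cells, had 1.60 FPKM in the treated and 0.0616 FPKM in the DMSO library. Plectin (PLEC), a linker of intermediate filaments, had 48.8 FPKM in the treated library and 11.4 FPKM in the DMSO library, and dystonin (DST), a linker of the same family, had 17.7 FPKM in the treated library and 54.3 FPKM in the DMSO library. PLEC and DST kept these calls after GC correction, and NES (0.83) and VIM (0.90) did not.

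The filament genes of other cell types were lower still. Peripherin (PRPH), the filament of peripheral neurons, had 0.841 FPKM in the treated library and was listed at 0 in the DMSO library. Desmin (DES) and GFAP, the filaments of muscle and of astrocytes, had 0.408 and 0.256 FPKM in the treated library and were listed at 0 in the DMSO library. SYNM, CDK5, CDK5R1 and TRIM2, also in the list, were within 2-fold on the log2(FPKM + 1) scale. CDK5R1 had 1.45 FPKM in the treated and 0.555 FPKM in the DMSO library, a plain ratio of 2.62. CDK5R2, at 0.366 FPKM in the treated and 0.0262 FPKM in the DMSO library, was not measured.

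Of 31 other synaptic vesicle genes 14 were measured, 4 differed upward by 2-fold or more and 1 downward. Of the 4, 3 reached 1 FPKM in the treated library alone. The median difference was 0.40 over the measured genes and 0.04 over all 31, beside 0.13 for all measured genes and 0 for all symbols. SYT11, a synaptotagmin, had 1.89 FPKM in the treated library and 0.0352 FPKM in the DMSO library, and the vesicle GTPase RAB3B had 1.82 FPKM in the treated and 0.0659 FPKM in the DMSO library. Both stayed at least 2-fold higher after GC correction. SYT1, the calcium sensor of neurotransmitter release, went the other way, with 2.11 FPKM in the treated library and 5.76 FPKM in the DMSO library, and its difference after correction was -0.82. SYNGR2, a synaptogyrin of non-neuronal tissues, had 90.3 FPKM in the treated library and 37.1 FPKM in the DMSO library.

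In the list of SNARE and release machinery, 22 of 29 genes were measured. The median difference was 0.43 over the measured genes and 0.15 over all 29. Of the measured genes 3 were at least 2-fold higher and none lower. They were UNC13D, a priming factor of secretory cells, at 34.0 FPKM in the treated library and 9.38 FPKM in the DMSO library, STX3 at 6.99 FPKM in the treated and 2.58 FPKM in the DMSO library, and VAMP2 at 26.6 FPKM in the treated and 11.8 FPKM in the DMSO library. STX3 alone of these kept its call after GC correction (1.05). VAMP8, a SNARE of exocytosis in secretory cells, was within 2-fold (0.90). Of 21 microtubule and growth-cone genes 9 were measured and 4 were at least 2-fold higher, all of them tubulins. The neuronal beta-tubulin TUBB3 had 20.1 FPKM in the treated library and 6.71 FPKM in the DMSO library, TUBB2A had 28.0 FPKM in the treated and 10.5 FPKM in the DMSO library, and TUBB2B had 13.1 FPKM in the treated and 5.12 FPKM in the DMSO library. These 3 tubulins were under 2-fold after correction, and TUBB4, at 5.19 FPKM in the treated and 1.49 FPKM in the DMSO library, had no GC value. Tubulin genes share sequence, so the value of one copy is uncertain.

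Of 21 neuroendocrine secretory genes 9 were measured and 6 of these were at least 2-fold higher, but 5 of the 6 reached 1 FPKM in the treated library alone and so had to differ to be counted. The median difference was 0.30 over all 21 genes. After GC correction 2 genes stayed higher. Secretogranin II (SCG2) had 1.56 FPKM in the treated library and was listed at 0 in the DMSO library. CPE, a carboxypeptidase that processes prohormones, had 3.40 FPKM in the treated library and 0.629 FPKM in the DMSO library. VGF, a neurosecretory protein, had 1.95 FPKM in the treated and 0.0253 FPKM in the DMSO library, and TH, which makes the precursor of dopamine, had 1.26 FPKM in the treated and 0.0369 FPKM in the DMSO library. SCG2 and CPE were the genes that kept their calls.

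Among 23 postsynaptic and adhesion genes 11 were measured, 3 were at least 2-fold higher and 1 lower. Of the 3, 2 reached 1 FPKM in the treated library alone. The median difference was 0.31 over the measured genes and 0.04 over all 23. HOMER3, a scaffold protein, had 27.2 FPKM in the treated library and 9.39 FPKM in the DMSO library, the adhesion protein L1CAM had 2.83 FPKM in the treated and 0.459 FPKM in the DMSO library, and THY1 had 1.55 FPKM in the treated library and was listed at 0 in the DMSO library. SHANK2, another scaffold, had 3.71 FPKM in the treated library and 11.6 FPKM in the DMSO library. After correction SHANK2 was the only one of these to keep its call.

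Neuronal RNA-binding proteins and transcription factors were mostly silent. Of 29 such genes 26 were under 1 FPKM in both libraries, 12 of these at 0 in both, and none of the 3 measured was 2-fold different. SOX4 had 3.32 FPKM in the treated library and 6.47 FPKM in the DMSO library, ELAVL2 had 0.906 FPKM in the treated and 1.63 FPKM in the DMSO library, and ISL1 had 1.49 FPKM in the treated and 2.11 FPKM in the DMSO library.

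REST itself was expressed in both libraries, with 8.61 FPKM in the treated library and 11.2 FPKM in the DMSO library. Its corepressor subunits were also expressed, RCOR1 at 24.7 FPKM in the treated and 21.1 FPKM in the DMSO library, SIN3A at 23.4 FPKM in the treated and 22.3 FPKM in the DMSO library, KDM1A at 39.4 FPKM in the treated and 33.4 FPKM in the DMSO library, HDAC1 at 54.4 FPKM in the treated and 59.6 FPKM in the DMSO library, and HDAC2 at 22.9 FPKM in the treated and 25.1 FPKM in the DMSO library. Of 17 measured genes of the list 2 were at least 2-fold higher and none lower. They were the histone demethylase KDM5C at 16.5 FPKM in the treated library and 7.24 FPKM in the DMSO library, and the phosphatase CTDSP1 at 32.1 FPKM in the treated and 14.4 FPKM in the DMSO library. Both were under 2-fold after GC correction. The log2 differences of SIN3B (0.78), RCOR2 (0.67), EHMT2 (0.64), EHMT1 (0.49), CTDSP2 (0.28), ZNF217 (-0.16), CTDSPL (-0.29), REST (-0.34) and RCOR3 (-0.58) were within 2-fold. SRRM4, the splicing factor that inactivates REST transcripts in neurons, was listed at 0 in both libraries.

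The 11 related lists held 204 genes, none of them among the 9, and 93 were under 1 FPKM in both libraries. Of 111 measured genes 29 (26.1%) were at least 2-fold higher and 3 (2.70%) lower, beside 16.1% and 5.21% of all measured genes. Of the 29 higher genes 14 reached 1 FPKM in the treated library alone. The median difference was 0.48 over the measured genes, beside 0.13 for all measured genes, and 0.11 over all 204, beside 0 for all symbols. After GC correction 7 of 110 (6.36%) were higher and 2 lower. Their corrected median was 0.16, and that of all measured genes 0.02. That corrected share of higher genes is near the background of 7.47%. Genes near 0 FPKM may be overcorrected, so nothing is read from this nearness. Under 1 FPKM in the DMSO library were 14 of the 29 higher related genes and 917 of the 2178 higher genes overall before correction.

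**Figure D4:**
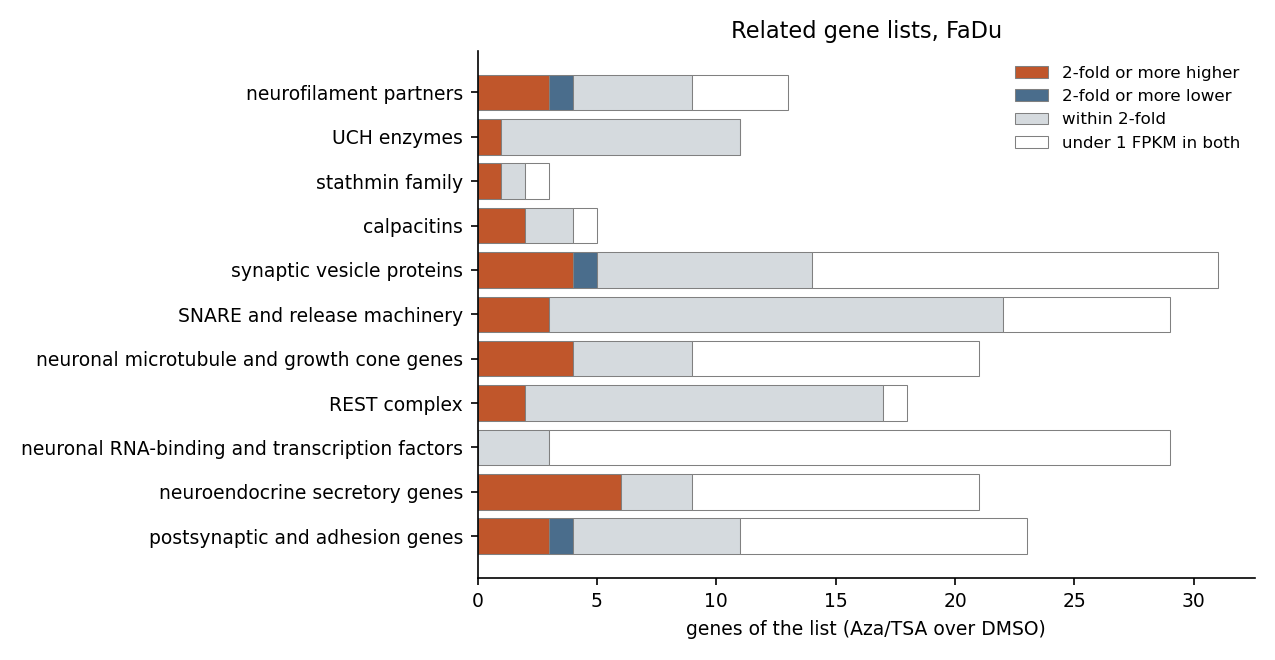
Genes of each related list of FaDu, treated over DMSO: at least 2-fold higher (orange), at least 2-fold lower (blue), within 2-fold (grey) and under 1 FPKM in both libraries (white). Neuroendocrine secretory genes have 6 of 9 measured genes higher, beside 16.1% of all measured genes. Of these 6, 5 reached 1 FPKM in the treated library alone and 2 stayed higher after GC correction. Of 29 neuronal RNA-binding and transcription factor genes 26 are under 1 FPKM in both libraries.

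Both libraries carried squamous markers, with all 8 measured and a summed level of 2190 FPKM in the treated library and 2350 FPKM in the DMSO library. KRT17 alone made up 1341 FPKM of that sum in the treated library and 1164 FPKM in the DMSO library. KRT5 and TP63 were lower in the treated library, at 226 and 23.2 FPKM, against 687 and 73.7 FPKM in the DMSO library, and KRT14 was higher, at 147 FPKM in the treated library and 49.8 FPKM in the DMSO library. KRT6A (0.97) was within 2-fold. After GC correction KRT5 (-2.17) and TP63 (-1.38) stayed at least 2-fold lower, and KRT14 (0.79) was within 2-fold. Of 34 housekeeping genes 4 were at least 2-fold higher (ACTB, VCP, POLR2A and TUBA1B), with a median of 0.11, and none was after GC correction. Of 10 neuron markers 4 were measured, with sums of 27.7 FPKM in the treated library and 20.1 FPKM in the DMSO library. Without TUBB3 the other 9 summed to 7.65 FPKM in the treated library and 13.4 FPKM in the DMSO library, and DCX and ELAVL3 were listed at 0 in both. Besides TUBB3 and SYT1, described above, GAD1 (-0.80) and MAP2 (-0.11) were measured and within 2-fold. Of 8 neuroendocrine markers 1 was measured, with sums of 3.71 FPKM in the treated and 0.107 FPKM in the DMSO library, and INSM1 was listed at 0 in both. Of 8 glia markers 1 was measured, and their sums were 5.84 FPKM in the treated and 7.21 FPKM in the DMSO library. For fibroblast markers the sums were 3.65 FPKM in the treated and 0.794 FPKM in the DMSO library, for endothelial markers 3.73 FPKM in the treated and 0.943 FPKM in the DMSO library, and for leukocyte markers 56.3 FPKM in the treated and 14.7 FPKM in the DMSO library, of which CD68 made up 51.3 FPKM in the treated and 13.0 FPKM in the DMSO library. The single measured genes were MBP for glia, with a log2 difference of -0.54, COL1A1 for fibroblasts (1.22) and CDH5 for endothelium (1.14), and CD14 (1.09) was measured beside CD68 (1.90). After GC correction MBP (-1.02) was at least 2-fold lower and CD68 (1.42) stayed higher, while COL1A1 (0.44), CDH5 (0.71) and CD14 (0.46) were within 2-fold. Of the other leukocyte markers, PTPRC, CD3E and LYZ lay between 0.0385 and 0.182 FPKM in the treated library and between 0 and 0.0513 FPKM in the DMSO library. Of the other endothelial markers, VWF had 0.869 FPKM in the treated and 0.20 FPKM in the DMSO library, PECAM1 had 0.0140 FPKM in the treated and 0 FPKM in the DMSO library, and KDR was listed at 0 in both. The part of other cell types in the differences of the 9 genes was not tested. In bulk RNA a few cells with much of a transcript cannot be told apart from many cells with little.

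By the distance of log2(FPKM + 1) over the 2 FaDu libraries, the genes nearest to UCHL1 were COX8C (24.3 FPKM in the treated library, 0.731 FPKM in the DMSO library), CPA4 (20.4 FPKM in the treated and 1.05 FPKM in the DMSO library) and TRIML2 (18.4 FPKM in the treated and 0.870 FPKM in the DMSO library). The nearest to NEFH were MAGEB6, CXorf61 and KRTAP2-4, each listed at 0 in the DMSO library and between 4.91 and 5.01 FPKM in the treated library. INA was nearest to PRKCDBP, KREMEN2 and GEM, NEFM to MAPK11, SLC16A8 and CDH13, and SYP to ZSCAN5B, C1QL1 and DCAF8L1. With 2 values per gene this likeness describes levels only.

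**Figure D5:**
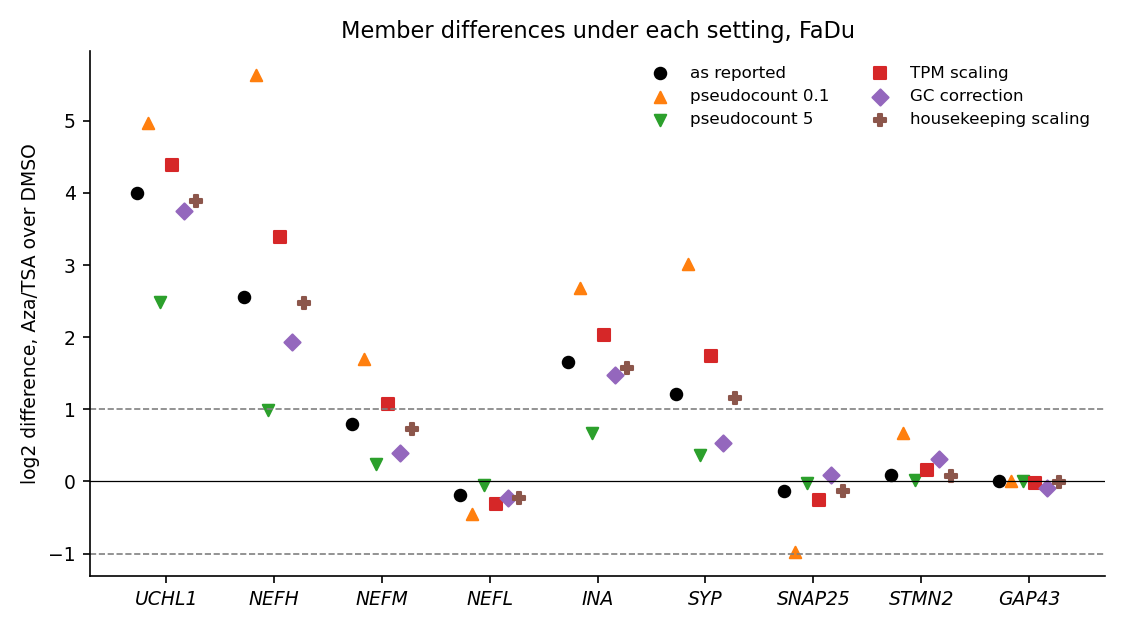
Log2 difference, treated over DMSO, of each of the 9 genes under the reported setting (black) and under 5 other settings, with dashed lines at 2-fold and 1 library per group. UCHL1 stays above 2-fold in all 6, NEFH (0.98), INA (0.67) and SYP (0.36) are under it with a pseudocount of 5, SYP also after GC correction (0.54), and NEFM passes it with a pseudocount of 0.1 and after TPM scaling.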

How the data were processed

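Polyadenylated RNA of FaDu and UMSCC47 cells was sequenced as stranded libraries, 1 per group in 4 groups, per the labels' protocols. The authors deposited FPKM per gene symbol, and the submitters' processing notes name TopHat 1.3.2, Cufflinks 2.0.2 and the build hg19. No annotation, filter or scaling is given in the sources used here. The FaDu columns summed to 516692 (treated) and 491963 FPKM (DMSO). UMSCC47 columns were not used for named genes, because their rank correlation with the FaDu columns was 0.110 to 0.121, against 0.908 between the FaDu columns.

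In the 25593 rows, 45 repeats were summed. Transcript GC content and length were those of the longest principal transcript in GENCODE release 29, and 92.4% of measured genes had a value. The GC trend was fitted by lowess (fraction 0.3, statsmodels 0.14.6). Calls and correction were also run on simulated data. No outcome of that run is given here, and it is not read as a check of genes that are low in the DMSO library. The steps of low FPKM imply about 14900000 (treated) and 15200000 (DMSO) fragments, if no other scaling was applied, estimates too rough to show a difference in depth between the libraries. The FPKM files themselves give no depth. For reads of single genes, a pair of whole numbers within 20% of the length-based estimate was used where its ratio matched. This inference of reads, with its limits on step size and matching, was devised after the values were seen, as was the split of promoter windows by CpG count. Alternatives were pseudocounts of 0.1 and 5 FPKM, no filter or one at 5 FPKM, a 4-fold threshold, TPM, GC and housekeeping scaling, and the highest row per symbol.

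The 9 genes and the lists were chosen with earlier results of these data known. Named are all 9 genes, all genes of the short family lists, REST complex genes at 1 FPKM or more, and up to 4 measured genes with the widest difference from each other list. Some genes that this rule names are not reported here. For each measured member the 3 nearest genes outside short RNA and LOC symbols were taken. SNAP23, SYPL1, PTPRC, CD3E, LYZ, VWF, PECAM1, KDR, DCX, ELAVL3, INSM1 and SRRM4 were named outside this rule, after their values were seen. The squamous, neuron, neuroendocrine, glia, fibroblast, leukocyte and endothelium marker lists were used as checks of cell type.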

Additional observations from a re-analysis of the deposited data

How the results depend on the processing

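With 1 library per group no replicate could be left out, and depth limits SNAP25, STMN2 and GAP43 to 4 reads or fewer per library. No paired analysis was possible because each group has 1 library and no result comes from a test. With a pseudocount of 5, 1 of the 9 genes was at least 2-fold higher, and NEFH (0.98), INA (0.67) and SYP (0.36) were under 2-fold. That setting gave 8 higher and 1 lower among the related genes and 893 and 253 among all genes. A pseudocount of 0.1 put NEFM at 1.70, with 5 related genes and 1182 of all genes lower. GC correction put SYP at 0.54, with 7 related genes and 936 of all genes higher. TPM scaling put NEFM at 1.08, with 1152 of all genes lower. A filter at 5 FPKM left 1 of the 9 genes and 14 related genes higher. At 4-fold, 2 of the 9 genes were higher, 1 related gene was higher and 0 lower, and 496 of all genes were higher and 91 lower. The causes were not tested beyond what each setting does by construction. Scaling by 34 housekeeping genes and GC correction lowered the median of all measured genes by 0.10 and 0.11. The 4 higher genes were called by their differences in these same libraries, so their place above the median was largely set in advance. Relative to each setting's own median of all measured genes, they stayed above it under all 6 other settings that rescale or recompute the difference. Among the uncalled genes SNAP25 changed sign relative to it (-0.26 as reported, 0.08 after GC correction), as did STMN2 (-0.05 as reported, 0.30 after GC correction, 0.52 with a pseudocount of 0.1, and 0.05 under TPM and under housekeeping scaling). For 87 other named genes, 458 values kept their side of 2-fold, 53 lost it and 10 gained it, and of the counts per list 265 stayed within 1.5 times and 77 did not.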
